A study of Mus musculus with 3 samples.

Results

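Among CD31- CD45- cells sorted from the stromal vascular fraction (SVF) of mouse subcutaneous fat and labelled adipocyte progenitors, a small remainder still carried the transcripts of blood vessels. Endothelial cells, which line the vessel, were taken as cells with at least 3 of 7 genes detected (Pecam1, Cdh5, Cldn5, Egfl7, Kdr, Emcn and Gpihbp1). Mural cells, the pericytes and smooth muscle cells that wrap the vessel, were taken as cells with at least 3 of 6 genes detected (Rgs5, Notch3, Myh11, Cspg4, Acta2 and Higd1b). A gene counted as detected with 1 or more UMIs (unique molecular identifiers, each standing for 1 captured RNA molecule), and barcodes were kept if they showed over 500 genes and under 5% of UMIs from mitochondrial genes. The members were thus chosen by the UMIs of these 13 genes. Of 34577 kept cells, 86 met the endothelial rule and 72 the mural rule, which makes 153 cells in all because 5 met both. The 5 cells with both sets of genes are described on their own, so that 81 endothelial cells and 67 mural cells were compared with each other and with the 34424 other kept cells.

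The study profiled adipocyte progenitors by single-cell RNA-seq to resolve the stages that these cells pass through. The cells came from the subcutaneous inguinal depot of 3 male wild-type C57BL/6J mice aged 8 weeks, with 1 droplet library a mouse and no treatment or other genotype, so the comparisons run between cell classes and not between groups of mice. Fat was digested with collagenase, floating adipocytes and red cells were removed, and cells were sorted for the absence of CD31, an endothelial surface protein encoded by Pecam1, and of CD45, the leukocyte protein encoded by Ptprc. The vascular cells described here are therefore what passed a sort meant to leave endothelium out, and they need not resemble the vascular cells that the sort removed.

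Endothelial cells of fat capillaries do more than hold blood: Gpihbp1 on their surface anchors lipoprotein lipase, which frees fatty acids from circulating lipoproteins, and transporters such as Cd36 and Fabp4 then carry the fatty acids across the cell. Mural cells share the basement membrane of the endothelium. Pericytes cover capillaries and respond to platelet-derived growth factor made by the endothelium, whereas smooth muscle cells encircle larger vessels and contract through actin, myosin and their regulators.

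Endothelial cells were found mostly in mice 1 and 2 and mural cells in all 3. In mice 1, 2 and 3 there were 41, 39 and 6 endothelial cells among 12984, 6414 and 15179 kept cells, or 0.316% (exact Clopper-Pearson 95% interval 0.227 to 0.428), 0.608% (0.433 to 0.83) and 0.0395% (0.0145 to 0.086). The intervals of mouse 3 and of the other 2 mice did not overlap, and these intervals cover counting error only. Mural cells numbered 28, 10 and 34, or 0.216% (0.143 to 0.312), 0.156% (0.0748 to 0.286) and 0.224% (0.155 to 0.313), with intervals that overlapped in all 3 mice. These shares come straight from the rules and are given without a test. With every cell thinned to 3000 UMIs and shallower cells left out, 14, 8 and 2 cells met the endothelial rule, or 0.119% (exact interval 0.0651 to 0.2), 0.131% (0.0565 to 0.258) and 0.015% (0.00182 to 0.0543). Mice 1 and 2 were then close and mouse 3 was the lowest, with an interval below those of both. Most endothelial cells of mice 1 and 2 held under 3000 UMIs and were dropped, so these shares cover the deeper cells only. After the same thinning 19, 2 and 16 cells met the mural rule, or 0.162% (0.0973 to 0.252), 0.0327% (0.00396 to 0.118) and 0.12% (0.0688 to 0.195), which spread further between mice than before thinning, with intervals that overlapped. The part of the sort was not tested.

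Depth also differed between the classes. The endothelial cells had median UMI numbers of 2339, 1907 and 7821 (mice 1, 2 and 3), the mural cells 6331, 7074 and 5122.5, and the other kept cells 7394.5, 12209 and 6668. In mice 1 and 2 the endothelial cells were thus shallow beside the other cells, and in mouse 3, with 6 cells, their median was not. The shallowest of these 6 held 981 and 1320 UMIs, and they carried the highest levels of the endothelial identity list given below. Summed over its cells, the endothelial class of each mouse held 164888, 130526 and 36607 UMIs and the mural class 168842, 71095 and 217343, against 94450997, 77863043 and 99074775 for the other kept cells. Levels below are CPM, the UMIs of a gene per 1000000 summed UMIs of the class, in mice 1, 2 and 3 in that order, and a gene with 0 UMIs could lie at up to 9.04 CPM in the endothelial class and 6.56 CPM in the mural class, the level of 3 UMIs over the class. Pairs of libraries shared 37, 59 and 45 kept barcodes, and none was shared between vascular cells of different mice, while 0, 2 and 2 vascular barcodes of a pair also occurred among the kept cells of the other library.

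**Figure D1:**
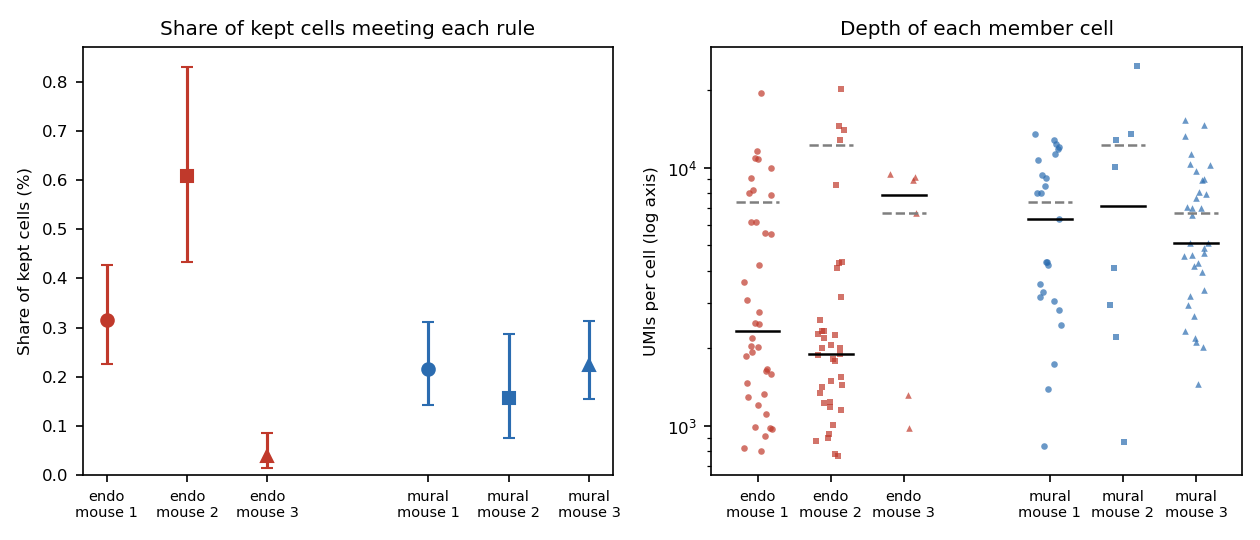
Left, share of kept cells (percent) that met the endothelial rule (red) or the mural rule (blue) in each mouse, with exact 95% intervals. Right, UMIs per cell on a log axis for each of the 81 endothelial and 67 mural cells, with the class median (black line) and the median of the other kept cells of that mouse (dashed grey line). The endothelial share runs from 0.0395% in mouse 3 to 0.608% in mouse 2, and most endothelial cells of mice 1 and 2 lie below the grey lines.

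The genes of the rules separated the classes by construction and are given as a description. Cldn5, a claudin of endothelial tight junctions, stood at 1504, 2498 and 492 CPM in the endothelial class and at 0 UMIs in the mural class, against 0.328, 0.334 and 0.101 in the other cells. Gpihbp1 was at 1274, 2206.5 and 382 CPM in the endothelial class, and 78 of 81 endothelial cells held a UMI of it, compared with 37 of 34424 other cells. A UMI of Pecam1 was found in 59 of the 81 endothelial cells, although its protein is the one sorted against. Rgs5, a regulator of G-protein signalling used to mark pericytes, was at 1463, 661 and 603 CPM in the mural class and Acta2, the smooth muscle actin, at 3399.6, 211 and 2328. Both were under 3 CPM in the other cells of every mouse. Acta2 in mouse 2 lay far below mice 1 and 3.

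Markers of each name that the rules did not use were also raised. A list of 26 endothelial identity genes summed to 6513.5, 9117 and 2568 CPM in the endothelial class, 569, 633 and 469 in the mural class and 462, 463 and 439.6 in the other cells, where Ramp2 was the most abundant gene. All 81 endothelial cells held a UMI of the list, as did 52 of 67 mural cells, and 80 of 81 endothelial cells held UMIs of 2 or more of its genes, against 59.8%, 74.6% and 53.95% of the other cells in mice 1, 2 and 3. The lowest endothelial cells, at 243, 416 and 448 CPM, were below the summed level of the other cells of their mouse. A list of 22 contractile smooth muscle genes summed to 11437, 2166 and 9629.9 CPM in the mural class and to 1127, 1205 and 1097 in the other cells, and a list of 20 pericyte genes to 4122, 3839.9 and 2724 in the mural class and 1969, 1865 and 1928 in the other cells. The contractile sum of mouse 2 lay far below those of mice 1 and 3, and on the pericyte list mouse 3 was closest to its other cells. Mural cells of mouse 2 without a UMI of Pdgfra, a marker of progenitors, supplied 7921 of its 71095 mural UMIs. The 5 with such a UMI had medians of 12828 UMIs, 1056 CPM of contractile and 94406 CPM of fibroblast transcripts. The mural levels of mouse 2 thus rest mostly on these 5 cells. At the edge of the endothelial rule, with cells that met both rules left out, the 7 cells with exactly 3 rule genes summed to 1414 and 790 CPM of the identity list in mice 1 and 2 (mouse 3 had none), and the 24 cells with exactly 2 to 737, 419 and 633 in mice 1, 2 and 3. The 4 of these 7 cells that came from mouse 2 held 103140 CPM of fibroblast transcripts. At the edge of the mural rule, the 29 cells with exactly 3 rule genes summed to 16514.5, 1111 and 8760 CPM of the contractile list, and the 109 cells with exactly 2 to 2702, 1649.5 and 2709. The 4 such cells of mouse 2 were thus at the level of the other cells of that mouse on this list, and they held 106577 CPM of fibroblast transcripts.

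Over the other kept cells, the endothelial class rose in further vessel genes by large factors. Sums per mouse and class were fitted together with edgeR's quasi-likelihood test, with the mouse as a block and Benjamini-Hochberg adjustment over 3134 genes, and 3122 of these lay outside the rules. The classes were drawn from the same cells with the rule genes, so the test says which other transcripts went with those genes across the 3 mice. Its p-values weigh a class difference against the spread left between the sums after the block takes out the mouse. At an adjusted p under 0.05, 252 genes were higher (8.07% of those tested) and 102 lower (3.27%) in the endothelial class (278 and 54 when scaled by library size only). Of the endothelial identity list, 15 of 26 genes passed the low-count filter and 14 of them were higher and none lower, with a median log2 fold change of 8.81 beside -0.01 over all genes tested. A gene that passed the filter only through the class in which it was abundant had to differ, so these counts describe the genes that could be tested and not the whole list. The same limit holds for the counts and medians of every other list below.

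Cyyr1, a cysteine- and tyrosine-rich membrane protein gene on chromosome 16, 85421533 to 85553397 (GENCODE M21, GRCm38), led the rises. It stood at 267, 429 and 109 CPM in the endothelial class, and the other cells of each mouse were at or below 0.0318 CPM (log2 fold change 13.03 ± 0.70 (SE), adjusted p = 1.87e-06). Mouse 3 was the lowest of the 3 endothelial values, and the classes did not overlap. Flt1, a receptor for vascular endothelial growth factor (VEGF), was at 503, 621 and 273 CPM against 0.106, 0.141 and 0.121 (log2 fold change 11.83 ± 0.33 (SE), adjusted p = 2.01e-08). Adgrl4, an adhesion receptor of endothelium, was at 570.1, 429 and 137 CPM, and Ptprb, the phosphatase that acts on VE-cadherin and Tie2, at 746, 751 and 382 CPM. Neither exceeded 0.402 CPM in the other cells of any mouse, and their log2 fold changes were 12.43 and 10.91. The remaining leading rises were C1qtnf9, Btnl9, the transcription factor Sox17, the glycerol channel Aqp7, Timp4 and the receptor Cd93, all with log2 fold changes between 10.86 and 12.44 and adjusted p-values no higher than 8.33e-06. The water channel Aqp1 was the most abundant gene of the identity list, at 1061, 1655 and 355 CPM against 0.349, 1 and 0.696 (log2 fold change 10.58 ± 0.60 (SE), adjusted p = 3.17e-07).

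The promoter of Cyyr1 is shown because the gene led the endothelial rises. The letters are the 250 bases before the start in RefSeq (GRCm38.p6), read 5′ to 3′ along the gene, with the match to CAGGAA, a core of ETS family binding sites, in capitals on the opposite strand, 161 bases before the start. This RefSeq start lies inside the GENCODE gene.
Cyyr1 (chr16:85550374-85550623, minus strand): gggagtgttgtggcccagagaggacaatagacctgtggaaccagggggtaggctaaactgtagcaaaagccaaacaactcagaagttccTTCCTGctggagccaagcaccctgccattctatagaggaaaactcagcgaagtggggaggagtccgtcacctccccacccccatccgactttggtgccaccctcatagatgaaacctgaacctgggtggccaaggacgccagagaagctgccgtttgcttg
CAGGAA was searched on both strands in windows from 250 bases before to 50 after each start. Of 33 endothelial identity and rule genes, 15 had a window, and 10 of these (66.7%) held the 6 letters, as did 33.4% of all 27025 genes with a window. A match describes the letters only.

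Many of the tested genes of fatty acid handling were higher in the endothelial class. Of a list of 20, 13 were tested, 11 were higher and none was lower, with a median log2 fold change of 4.43. Of all genes tested, 8.07% were higher, and the limit of the low-count filter given above applies to this list too. Fabp4, a fatty acid binding protein, reached 15544, 23352 and 6474 CPM and was the most abundant gene of the list, against 316, 291 and 219 in the other cells (log2 fold change 5.54 ± 0.29 (SE), adjusted p = 1.98e-07). Cd36, a fatty acid translocase, stood at 3075, 2796 and 1202 CPM against 59.7, 23.1 and 24.7 (log2 fold change 6.03 ± 0.32 (SE), adjusted p = 1.98e-07), and Fabp5 at 1492, 988 and 382 CPM against 14.1, 13.3 and 8.49 (log2 fold change 6.25 ± 0.32 (SE), adjusted p = 1.28e-07). In each gene mouse 3 was the lowest of the endothelial values and still far above every value of the other cells. The nuclear receptor Pparg and the caveolar protein Cav1 rose less, by 3.17 and 2.97 on the log2 scale (adjusted p = 9.61e-05 and 3.83e-05). Lpl, which encodes the lipase that Gpihbp1 anchors, was at 843, 628 and 1939.5 CPM in the endothelial class and 1303, 1231 and 945 in the other cells, which make it too, and did not pass the test (log2 fold change -0.20 ± 0.35 (SE), adjusted p = 0.759). When cells were thinned to 1000 UMIs, a choice made after seeing the data, a Cd36 UMI was found in 28 of 32, 28 of 32 and 2 of 5 endothelial cells, and in 4.74%, 1.91% and 1.82% of the other cells (before thinning, in 79 of 81 and 11.8%).

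Adipocyte transcripts were also higher in the endothelial class. An 8-gene adipocyte list summed to 807, 628 and 409.8 CPM in the endothelial class, 17.8, 56.3 and 46 in the mural class and 32.1, 22.3 and 18.6 in the other cells, with Cfd, or adipsin, as its most abundant endothelial gene. Cfd was at 412, 229.8 and 137 CPM in the endothelial class against 0.572, 0.719 and 0.757 (log2 fold change 8.57 ± 0.58 (SE), adjusted p = 9.07e-06), and Car3, a carbonic anhydrase of fat, at 279, 291 and 191 against 21.6, 11.4 and 7.69 (log2 fold change 4.21 ± 0.35 (SE), adjusted p = 9.07e-06). They were the 2 genes of the list that could be tested. Adipoq, which encodes adiponectin, had 9 UMIs, found in 8 of 81 endothelial cells and in 7 of 34424 other cells, and none in the mural class. No gene of the list was at 0 UMIs in the endothelial class. In the 60 endothelial cells without a Pdgfra UMI the list summed to 1247, 1186 and 174 CPM. The part of adipocyte RNA in the rise of the fatty acid genes was not tested.

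Some receptors of vascular growth factors were higher in the endothelial class, and others were not called or not tested. Over all genes tested, 8.07% were higher and 3.27% lower, and the list counts that follow stand beside these shares. Of 12 VEGF and angiopoietin genes 5 were tested and 3 were higher, namely Flt1 and the co-receptors Nrp1, at 709.6, 475 and 218.5 CPM (log2 fold change 2.47 ± 0.29 (SE), adjusted p = 0.000125), and Nrp2, at 127, 130.2 and 27.3 CPM (log2 fold change 4.44 ± 0.54 (SE), adjusted p = 0.000184). Tek, the angiopoietin receptor, was at 194, 168.5 and 27.3 CPM and 113, 89.3 and 129 in the other cells (log2 fold change 0.53 ± 0.34 (SE), adjusted p = 0.332). Among 20 junction and adhesion genes 9 were tested and 5 were higher, including Esam, an endothelial adhesion molecule, at 327.5, 666.5 and 137 CPM (log2 fold change 10.24 ± 0.39 (SE), adjusted p = 2.01e-08), and the laminin receptor subunit Itga6, at 315, 337 and 137 CPM against 0.646, 0.604 and 1.55 (log2 fold change 8.38 ± 0.60 (SE), adjusted p = 2.54e-06). Tjp1, Cd151 and the collagen receptor subunit Itga1 were the other 3, with log2 fold changes of 1.81, 1.63 and 4.87. S1pr1, the sphingosine 1-phosphate receptor that keeps endothelium tight, was at 279, 429 and 109 CPM (log2 fold change 8.81 ± 0.69 (SE), adjusted p = 2.46e-05), and the endothelin receptor gene Ednrb at 78.8, 146 and 54.6 CPM against 0.519, 0.0128 and 0.323 (log2 fold change 8.72 ± 0.99 (SE), adjusted p = 0.000113). They were among 21 endothelin and vasoactive genes, of which 11 were tested, 4 were higher (S1pr1, Ednrb, Ece1 and Ramp2) and 1, the prostacyclin synthase gene Ptgis, was lower. Ece1, the endothelin-converting enzyme, rose by 1.51 (adjusted p = 0.00632), and the co-receptor Eng by 3.20 (adjusted p = 2.46e-05). Ramp2, at 455, 850.4 and 328 CPM against 256, 278 and 219, and Plvap, the protein of fenestral diaphragms, at 60.6, 191.5 and 27.3 CPM against 18.5, 25.2 and 17.5, rose by 1.05 and 2.27 (adjusted p = 0.0272 and 0.0203). Leaving out mouse 1 ended the calls of Ramp2 (adjusted p = 0.199), Ece1 (0.273), Tjp1 (0.177) and Cd151 (0.212), and leaving out mouse 2 those of Ramp2 (0.149), Plvap (0.269), Tjp1 (0.0671) and Cd151 (0.139).

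Markers of vessel type were mostly too sparse to test. The counts over the other cells stand beside 8.07% higher and 3.27% lower of all genes tested. Of 14 arterial genes 3 were tested, and Cxcl12, a chemokine that progenitors also make, was higher, at 582, 835 and 273 CPM against 130, 272.5 and 193 (log2 fold change 1.63 ± 0.35 (SE), adjusted p = 0.0122). That call was lost without mouse 1 (adjusted p = 0.232). The arterial Notch ligand Dll4 was at 42.5, 123 and 27.3 CPM and the gap junction gene Gja4 at 36.4, 15.3 and 0 CPM. Of 10 venous genes 5 were tested and none was called in the endothelial class over the other cells, and Vwf and Selp had 6 UMIs each. Against the mural class, Vcam1, Nr2f2 and Bgn were lower in the endothelial class, as were 2.88% of all genes tested. That call of Vcam1 was lost without mouse 1 (adjusted p = 0.0561) or mouse 3 (0.0584) and with 4 or more rule genes (0.0918). That of Nr2f2 was lost without mouse 2 (0.0705) or mouse 3 (0.0625). The defining lymphatic genes Prox1, Lyve1, Mmrn1 and Reln had 0 UMIs in the endothelial class, and of the 9 lymphatic genes measured 3 were tested and none was called. The list of 12 tip cell genes, which mark sprouting, had 2 tested and none called, and Esm1 had 3 UMIs.

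The 6 falls in the endothelial class that are given next were not called without mouse 1. The balance of rises and falls depended on the setting, with 252 and 102 genes here, 435 and 424 with up to 10% mitochondrial UMIs, 185 and 181 without vascular cells that held a Pdgfra UMI, and 628 and 591 with no low-count filter. Mgp, a matrix protein that binds calcium, had 0 UMIs in the endothelial class against 56.4, 104 and 70.0 CPM in the other cells, which makes it at least 8.29-fold lower over the summed UMIs, and Myoc, at 101, 99.7 and 96.2 CPM in the other cells, was likewise at 0 UMIs and at least 10.9-fold lower (adjusted p = 0.0194 and 0.0424). Sdc4, a syndecan, was at 18.2, 15.3 and 82 CPM against 111, 109.9 and 141.5 (log2 fold change -2.21 ± 0.44 (SE), adjusted p = 0.00758). Ccl8 and Cacna2d1 fell by 2.69 and 2.11 on the log2 scale. Pdgfrb, the PDGF receptor of mural cells that progenitors carry too, was at 30.3, 30.6 and 0 CPM against 88, 100.2 and 87.4 (log2 fold change -1.86 ± 0.44 (SE), adjusted p = 0.0203). Each of these 6 calls was lost without mouse 1, at adjusted p-values of 0.102 for Mgp, 0.147 for Myoc, 0.163 for Sdc4, 0.273 for Ccl8, 0.375 for Cacna2d1 and 0.18 for Pdgfrb. The log2 fold changes were then -1.95 for Sdc4, -2.53 for Ccl8, -1.525 for Cacna2d1 and -2.255 for Pdgfrb, so these folds did not vanish with the calls. Without mouse 2, Myoc, Cacna2d1 and Pdgfrb were also above 0.05 (0.0567, 0.0807 and 0.0668), and with cells of up to 10% mitochondrial UMIs kept the fall of Mgp shrank to a log2 fold change of -1.24 (adjusted p = 0.259), less than the bound above. That of Pdgfrb shrank to -0.54 with cells thinned to 3000 UMIs (0.742) and -0.77 with both-rule cells as endothelial (0.185), and was not called with 4 or more rule genes (0.098).

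Fibroblast transcripts were present in both vascular classes, and depth went with them. The 20-gene fibroblast and progenitor list summed to 44230.0, 47469.5 and 65561 CPM in the endothelial class, 43526, 88276 and 41165 in the mural class and 74716, 92455 and 75373 in the other cells, with Gsn as the most abundant gene in each class. Over all genes tested, 3.27% were lower and 8.07% higher in the endothelial class. Of 19 tested genes of the list 3 were lower in the endothelial class (Mgp, Pi16 and Fbn1) and none was higher. Without mouse 1 none of these 3 was called (adjusted p = 0.102, 0.147 and 0.334), and Fbn1 was not called without mouse 2 (0.0907) or when scaled by library size only (0.086). Pi16 and Fbn1 also missed the threshold with no block (0.0615 and 0.293) and with 4 or more rule genes (0.0995 and 0.0779). The same held without vascular cells that held a Pdgfra UMI (0.0939 and 0.0621), and for Fbn1 after thinning to 3000 UMIs (0.304). Dcn, the proteoglycan decorin, was at 6422.5, 6719 and 9369.8 CPM against 11367, 14525 and 11686 and did not pass the test (log2 fold change -0.77 ± 0.24 (SE), adjusted p = 0.0646). It did pass with no low-count filter (adjusted p = 7.25e-08), with both-rule cells as mural (0.004) and with up to 10% mitochondrial UMIs (0.00395), and without the vascular cells that held a Pdgfra UMI (0.0127), where a low Dcn level can follow from the selection. A Pdgfra UMI, a marker of progenitors, was found in 21 of 81 endothelial and 37 of 67 mural cells, and in 29506 of 34424 other cells. The 21 endothelial cells with a Pdgfra UMI had a median of 8949 UMIs, 2407 CPM of identity genes and 63162 CPM of fibroblast genes. The 60 without one had medians of 1726.5 UMIs, 14451 CPM and 6864 CPM. These 60 supplied 58550, 68296 and 11475 of the 164888, 130526 and 36607 endothelial UMIs of mice 1, 2 and 3. Mural cells without a Pdgfra UMI supplied 58051, 7921 and 40908 of 168842, 71095 and 217343 mural UMIs. The class levels and tests weigh cells by depth, so they need not be those of a typical vascular cell. Without the Pdgfra-bearing cells the identity list of the endothelial class summed to 13185, 16253 and 4619 CPM and Fabp4 stood at 31956, 43604 and 5926 CPM. The other cells were not filtered in this way, so these values describe the cells that were left and support no difference. In mouse 3 the 3 cells left still summed to 53159 CPM of fibroblast genes (7942 and 5462 in mice 1 and 2), and 1 of them held 9174 of their 11475 UMIs and 112 Dcn UMIs. Droplets that hold a vascular cell and a progenitor, and RNA free in the suspension, were not tested as sources of the fibroblast transcripts, and no doublet caller was run.

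**Figure D2:**
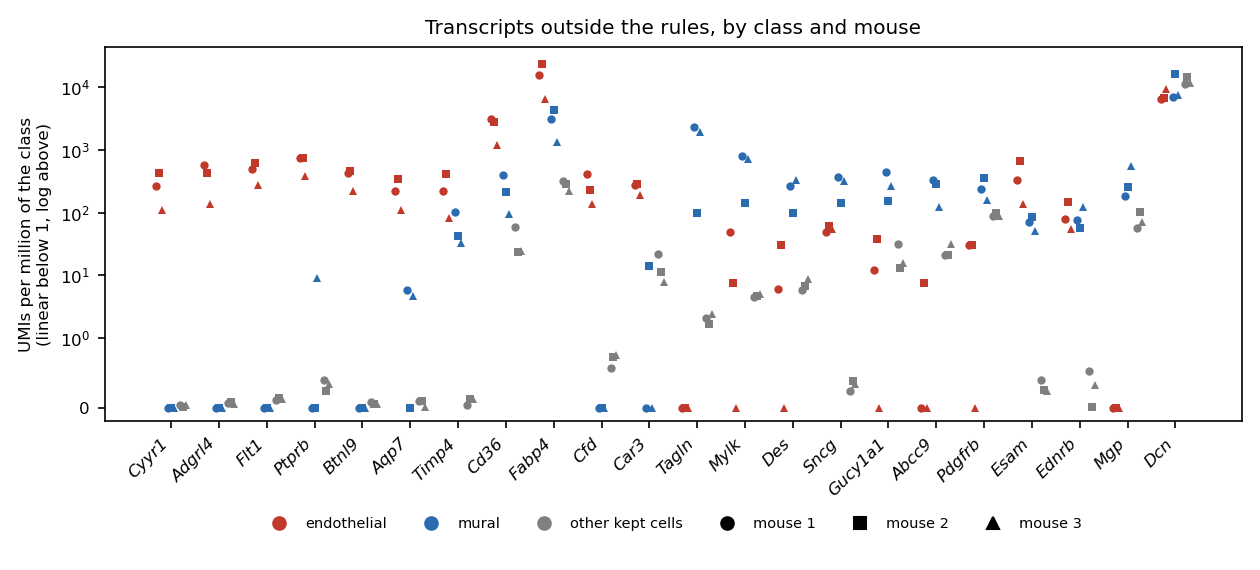
Level of 22 transcripts outside the rules in the endothelial class (red), the mural class (blue) and the other kept cells (grey), in CPM on an axis that is linear below 1 and logarithmic above. Each symbol is 1 mouse. From Cyyr1 to Car3 the red symbols lie highest, from Tagln to Pdgfrb the blue ones, Esam and Ednrb are raised in both classes, and Mgp is at 0 in the endothelial class.

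The mural class over the other kept cells rose in genes of contraction. By the same fit 189 genes were higher (6.05% of the 3122 tested) and 86 lower (2.75%), and this balance depended on the setting as well, with 126 and 147 without vascular cells that held a Pdgfra UMI, 534 and 478 with up to 10% mitochondrial UMIs, 324 and 295 with both-rule cells as mural, and 58 and 1 without mouse 1. Both comparisons use the same other kept cells, so no overlap between them is given. Of the 22 contractile genes 12 were tested, 11 were higher and none was lower, with a median log2 fold change of 3.99 beside 0.01 over all genes tested. Here too, a gene that passed the low-count filter only through the mural class had to differ. The counts and the median thus describe the genes that could be tested. Tagln, the actin-binding protein transgelin, stood at 2280.2, 98.5 and 1942 CPM against 2.06, 1.64 and 2.42 (log2 fold change 9.06 ± 0.81 (SE), adjusted p = 9.87e-05). Sncg, a synuclein, led the rises at 367, 141 and 322 CPM against 0.233, 0.385 and 0.333 (log2 fold change 9.86 ± 0.37 (SE), adjusted p = 5.77e-08). In both genes mouse 2 was the lowest of the mural values and still far above the other cells. The Sncg value of mouse 2 came from 1 of its 8 mural cells, against 16 of 25 in mouse 1 and 20 of 34 in mouse 3. Sncg was also called higher in the endothelial class over the other cells, as the 1 of 12 tested contractile genes, a share near the 8.07% of all genes. A UMI of it was found in 11 of 81 endothelial cells and in 64 of 34424 other cells. Mylk, the kinase that switches on myosin, was at 805.5, 141 and 722 CPM (log2 fold change 6.86 ± 0.45 (SE), adjusted p = 2.8e-06), the intermediate filament gene Des at 266.5, 98.5 and 327 CPM (log2 fold change 5.11 ± 0.36 (SE), adjusted p = 4.58e-06), and the tropomyosin Tpm2 at 1244, 84.4 and 819 CPM (log2 fold change 6.45 ± 0.79 (SE), adjusted p = 0.000298). Myl9, the regulatory light chain of myosin, was at 1244, 169 and 750 CPM against 32, 36.3 and 22.5 (log2 fold change 4.52 ± 0.47 (SE), adjusted p = 9.43e-05). Myl6, the light chain that nearly every cell makes, was at 1682, 802 and 1794 CPM against 759, 829 and 714 (log2 fold change 0.89 ± 0.25 (SE), adjusted p = 0.049), and its call was lost without mouse 1 (adjusted p = 0.514) or mouse 3 (0.367).

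Promoters of Myl9 and Myl6 are shown because they held a CArG box, the motif that serum response factor binds in smooth muscle genes, given in capitals in the 250 bases before the start (RefSeq, GRCm38.p6, read along the gene). The box begins 161 bases before the start in Myl9 and 50 bases before it in Myl6. Myl6 has another RefSeq start, with the 250 bases before it at chr10:128493887-128494136, where the box was not found.
Myl9 (chr2:156775214-156775463, plus strand): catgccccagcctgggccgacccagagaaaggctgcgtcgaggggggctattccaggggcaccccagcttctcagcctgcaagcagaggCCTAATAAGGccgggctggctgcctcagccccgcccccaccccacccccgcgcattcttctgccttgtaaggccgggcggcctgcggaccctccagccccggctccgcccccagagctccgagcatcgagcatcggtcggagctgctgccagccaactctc
Myl6 (chr10:128493010-128493259, minus strand): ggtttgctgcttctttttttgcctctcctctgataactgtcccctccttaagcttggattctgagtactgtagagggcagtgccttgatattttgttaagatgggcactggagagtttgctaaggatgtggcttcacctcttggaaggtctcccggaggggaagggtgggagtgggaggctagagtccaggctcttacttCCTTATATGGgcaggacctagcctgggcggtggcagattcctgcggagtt
The CArG box reads the same on both strands in the form searched. Of 24 contractile genes, Acta2 and Myh11 included, 17 had a promoter window of 300 bases and these 2 (11.8%) held the box, as did 1.81% of all genes. No box in a window says only that the letters are not in those 300 bases.

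Pericyte genes were higher in the mural class as well. Of the 20 in the list 13 were tested, 8 were higher and 1, Cd248, was lower. Over all genes tested, 6.05% were higher and 2.75% lower, and 1 lower gene is no result about the list. The limit of the low-count filter applies here as well. Abcc9, a subunit of the potassium channel of pericytes, was at 332, 281 and 124 CPM against 21, 21.3 and 31.1 (log2 fold change 3.26 ± 0.37 (SE), adjusted p = 0.000161), and Vtn, vitronectin, at 166, 379.8 and 147 against 38.1, 58 and 34.5 (log2 fold change 2.31 ± 0.24 (SE), adjusted p = 9.43e-05). Rgs4, a relative of Rgs5, was at 296, 98.5 and 221 CPM (log2 fold change 6.92 ± 0.49 (SE), adjusted p = 2.57e-05). Gucy1a1, a subunit of the guanylate cyclase through which nitric oxide relaxes muscle, was at 444, 155 and 267 CPM against 31.9, 13.2 and 15.5 (log2 fold change 3.91 ± 0.28 (SE), adjusted p = 4.58e-06). Pdgfrb was at 237, 352 and 156 CPM against 88, 100.2 and 87.4 (log2 fold change 1.35 ± 0.23 (SE), adjusted p = 0.00398), and 14581 of the 34424 other cells held a UMI of it too. Cd248, endosialin, fell by 1.10 on the log2 scale to 349, 323.5 and 414 CPM from 850, 689 and 799 (adjusted p = 0.00656). Without mouse 1, Pdgfrb (adjusted p = 0.169) and Cd248 (0.176) were not called. Kcnj8, the partner of Abcc9, was at 118.5, 70.3 and 36.8 CPM against 2.87, 4.66 and 5.52 and was too sparse to test, as was Mcam, at 82.9, 56.3 and 82.8 CPM against 0.159, 0.167 and 0.212.

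Further rises in the mural class included signalling and adhesion genes, with 4 of 11 tested endothelin and vasoactive genes higher (Ednrb, Gucy1a1, Gucy1b1 and S1pr3) and none lower. This and the list counts that follow stand beside 6.05% higher and 2.75% lower over all genes tested. The call of S1pr3 was lost without mouse 1 (adjusted p = 0.15) and by DESeq2 (0.0646). Tinagl1, a matrix protein of vessels, was at 444, 98.5 and 244 CPM against 0.476, 0.552 and 0.495 (log2 fold change 9.15 ± 0.47 (SE), adjusted p = 6.05e-07), and the endothelin receptor Ednrb at 77, 56.3 and 124 CPM (log2 fold change 8.37 ± 0.94 (SE), adjusted p = 0.000153). Apold1, Esam, Timp4, Bcam and the uncharacterized Gm13889 were the remaining leading rises, with log2 fold changes between 7.63 and 9.35. Gm13889 was the most abundant of them, at 2120.3, 914 and 1357 CPM against 3.38, 4.71 and 9.46. Nr2f2, a transcription factor of veins that mural cells also carry, was at 154, 197 and 152 CPM against 34.1, 37.3 and 29.1 (log2 fold change 2.32 ± 0.28 (SE), adjusted p = 0.00024), and the adhesion molecule Vcam1 at 82.9, 183 and 239 against 77.5, 73.3 and 84.6 (log2 fold change 1.06 ± 0.28 (SE), adjusted p = 0.0366). They were the 2 of 5 tested venous genes called in this class, and Vcam1 lost its call without mouse 1 (adjusted p = 0.0752) or mouse 3 (0.461), with 4 or more rule genes (log2 fold change 0.38, 0.608), by DESeq2 (0.0706), with no block (0.0631), with no low-count filter (0.0911) and with both-rule cells as mural (0.0712). Of 6 higher fatty acid handling genes among the 13 tested, Fabp4 was at 3133, 4388.5 and 1325 CPM (log2 fold change 3.25 ± 0.27 (SE), adjusted p = 1.52e-05) and Cd36 at 403, 211 and 96.6 CPM (log2 fold change 2.65 ± 0.31 (SE), adjusted p = 0.000224). The call of Cav1 was lost without mouse 1 (adjusted p = 0.226), and that of Fabp5 without mouse 1 (0.0894) or mouse 3 (0.0851), with no block (0.0658), with 4 or more rule genes (0.182), without vascular cells that held a Pdgfra UMI (0.113) and after thinning (0.404). Beside these, 4 of 15 tested endothelial identity genes were higher in the mural class, namely Esam, Cd93, Aqp1 and Adgrf5. The endothelial rule genes held 4 UMIs in the mural class. Cells that met the endothelial rule had been taken out of it, so this low number follows from the selection. Cd93 had 10 and Aqp1 14 UMIs there, and the calls of Cd93 and Adgrf5 were lost without mouse 1 (adjusted p = 0.0549 and 0.159) and that of Aqp1 without mouse 3 (0.0631).

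The leading falls in the mural class were Fosl1, Cxcl2, Pcsk5, Ptgs2 and Dkk2. Pcsk5, a proprotein convertase, was at 29.6, 14.1 and 32.2 CPM against 122, 76.7 and 102 (log2 fold change -1.90 ± 0.34 (SE), adjusted p = 0.00422), and Ptgs2, the inducible cyclooxygenase, at 118.5, 42.2 and 722 against 759.9, 817 and 946 (log2 fold change -1.81 ± 0.48 (SE), adjusted p = 0.0381). Fosl1, Cxcl2 and Dkk2 fell by 2.76, 1.95 and 1.70 on the log2 scale. Over all genes tested, 2.75% were lower and 6.05% higher in the mural class. Of 19 tested fibroblast and progenitor genes 4 were lower (Pi16, Dpp4, Ly6a and Fbn1) and 1 was higher, a share near that of all genes. The last was Mgp, at 184, 253 and 557 CPM against 56.4, 104 and 70.0 (log2 fold change 2.18 ± 0.32 (SE), adjusted p = 0.00273), so this gene was raised in the mural class and had 0 UMIs in the endothelial class. Without mouse 1, Pcsk5 (adjusted p = 0.129), Ptgs2 (0.416), Fosl1 (0.111), Cxcl2 (0.19), Dkk2 (0.402), Pi16 (0.0557), Dpp4 (0.198), Ly6a (0.0821), Fbn1 (0.109) and Mgp (0.0578) missed the threshold, while the folds stayed close to those above (log2 fold changes of -1.79 for Pcsk5, -1.52 for Ptgs2, -2.64 for Fosl1, -1.95 for Cxcl2, -1.58 for Dkk2 and 2.29 for Mgp). Fosl1, Cxcl2 and Dkk2 also missed it without mouse 3 (0.0685, 0.106 and 0.0779).

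Mural cells ranged from contractile to pericyte-like in their transcripts. Taking 2 or more of Myh11, Acta2 and Tagln as contractile and 2 or more of Rgs5, Kcnj8, Abcc9, Higd1b and Vtn as pericyte genes, 36 of 67 cells held both, 22 held the contractile genes alone, 9 the pericyte genes alone and none held neither. Since 4 of these 8 genes belong to the rule, the counts describe the cells and test nothing. Across the cells the contractile list ran from 743 to 37278 CPM with a median of 7869, and the pericyte list from 914.5 to 16943 CPM with a median of 3256. The mice differed in the balance: the contractile sum exceeded the pericyte sum in 20 of 25 cells of mouse 1, 2 of 8 of mouse 2 and 30 of 34 of mouse 3. The 30 mural cells without a Pdgfra UMI had a median of 19261 CPM of contractile genes and 3174.5 UMIs, and the 37 with one 4882 CPM and 9096 UMIs. Without the latter, Tagln in the mural class stood at 3704, 757.5 and 4596 CPM.

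**Figure D3:**
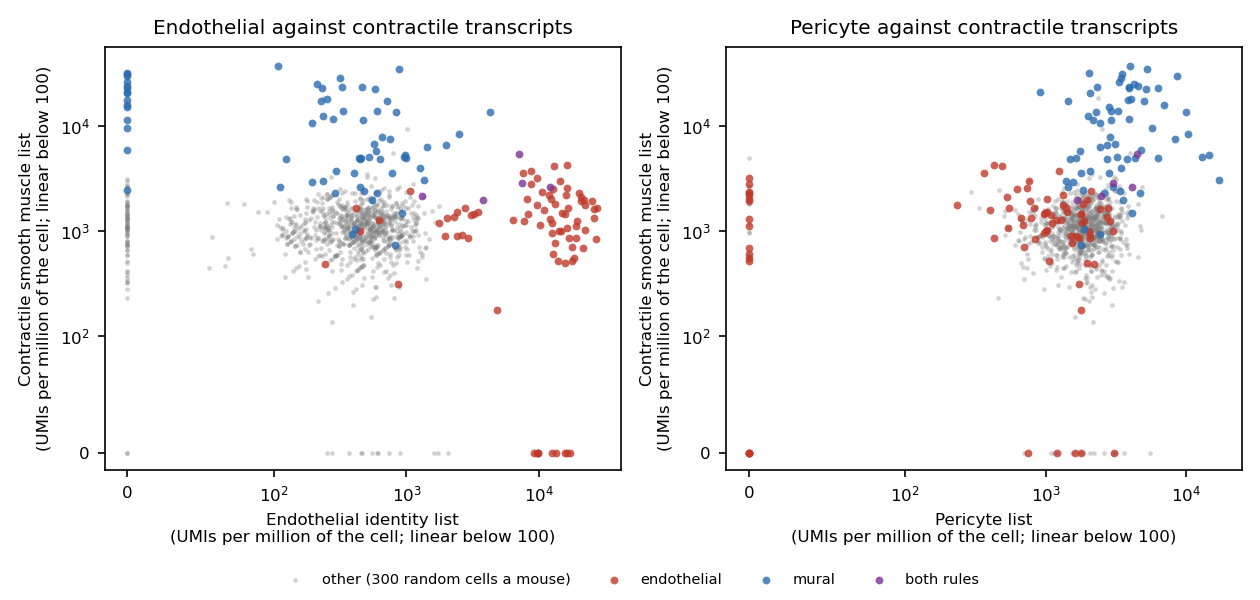
Each point is 1 cell, with the summed CPM of marker lists on axes that are linear below 100 and logarithmic above: endothelial identity against contractile genes (left) and pericyte against contractile genes (right). Red, 81 endothelial cells; blue, 67 mural cells; purple, 5 cells that met both rules; grey, 300 random other cells a mouse. The mural cells spread upward from 743 to 37278 CPM of contractile genes, and a group of red points lies at intermediate identity values nearer to the grey cloud.

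Set directly against each other, the vascular classes differed in 191 of 3122 genes (6.12%), with 101 higher (3.24%) and 90 lower (2.88%) in the endothelial class. The balance turned round with both-rule cells as mural (40 and 81), without mouse 2 (89 and 111) and with up to 10% mitochondrial UMIs (217 higher of 466), and by 1 gene after thinning (17 and 18). Flt1, Adgrl4, Btnl9, S1pr1, Cyyr1, Ctla2a, Car4 and Cfd had 0 UMIs in the mural class, and were at least 79.9-, 71.2-, 63.4-, 48.7-, 47.8-, 58.8-, 52.3- and 47.3-fold higher in the endothelial class over the summed UMIs, with the adjusted p-value highest for S1pr1 (0.0047). In the other direction, Tagln, Mgp, Rgs4 and Ifitm1 had 0 UMIs in the endothelial class and were at least 197-, 41.1-, 25.4- and 22.3-fold higher in the mural class. Gm13889 had 1 endothelial UMI, and the ratio of mural to endothelial summed levels was 521 (exact 95% interval 93.3 to 20619.5, counting error only). For Tpm2, Abcc9 and Cpe, a processing enzyme of peptide hormones, with 2, 1 and 2 endothelial UMIs, this ratio was 143 (exact 95% interval 39.3 to 1185, counting error only), 74.8 (exact 95% interval 13.1 to 2982, counting error only) and 43.6 (exact 95% interval 11.8 to 364, counting error only). Without mouse 1 the calls of Ctla2a (adjusted p = 0.0664), Cfd (0.0795), Tagln (0.0664), Rgs4 (0.0852), Tpm2 (0.155), Abcc9 (0.0849) and Cpe (0.092) were lost. Their fitted folds kept their direction and stayed large. That of Abcc9 was -5.00 on the log2 scale, against -6.295 with all mice, and the others rest on a class at or near 0 UMIs. With the cells that met both rules counted as mural, the calls of S1pr1 (0.107), Ctla2a (0.193) and Cfd (0.26) were lost. Their log2 fold changes were then 2.52, 2.31 and 1.73, less than the bounds above.

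Endothelial identity genes were higher in the endothelial than in the mural class for 13 of 15 tested, and contractile genes lower for 10 of 12. Over all genes tested, 3.24% were higher and 2.88% lower. Without mouse 1 the contractile genes Tagln, Tpm2, Myl9, Des and Sncg (adjusted p = 0.0664, 0.155, 0.0664, 0.131 and 0.186) and the identity genes Esam (0.095) and Ramp2 (0.194) were not called. Esam was also lost without mouse 2 (0.0657), and Esam and Eng were lost when cells were thinned to 3000 UMIs (0.127 and 0.323). Fatty acid handling was higher for 9 of 13 genes and lower for none: Fabp4 stood at 15544, 23352 and 6474 CPM in the endothelial and 3133, 4388.5 and 1325 CPM in the mural class (log2 fold change 2.29 ± 0.26 (SE), adjusted p = 0.000452), and Cd36 differed by 3.38 on the log2 scale (adjusted p = 0.000115). Of the pericyte genes 7 of 13 were lower in the endothelial class, among them Vtn (log2 fold change -4.28 ± 0.52 (SE), adjusted p = 0.000718) and Gucy1a1 (log2 fold change -3.94 ± 0.52 (SE), adjusted p = 0.00118). Without mouse 1 the adjusted p of Gucy1a1 was 0.101, and with cells thinned to 3000 UMIs that of Fabp4 was 0.052. Timp4, Apold1, Tinagl1 and Bcam, among the leading rises of the mural class, differed between the vascular classes by 1.87, 0.78, -0.60 and -0.14 on the log2 scale. Their adjusted p-values were 0.0875, 0.421, 0.603 and 0.946, and their standard errors 0.57, 0.45, 0.47 and 0.58. Timp4 was called with no block (log2 fold change 2.17, adjusted p = 0.0423) and with no low-count filter (0.000954). With errors of this size, a p above the threshold does not show that the classes were alike.

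Both vascular classes held transcripts of platelet-derived growth factor genes. The list held 7 genes, of which Pdgfra and Pdgfrb were tested, and Pdgfra was the most abundant gene of the list in both classes. Pdgfb, the endothelial ligand that recruits pericytes, was at 109, 191.5 and 0 CPM in the endothelial class with 43 UMIs, 1 UMI in the mural class and 0.0741, 0.0642 and 0.0505 CPM in the other cells, and was too sparse for the test. Its receptor Pdgfrb was at 30.3, 30.6 and 0 CPM in the endothelial and 237, 352 and 156 in the mural class (log2 fold change -3.21 ± 0.44 (SE), adjusted p = 0.0015). That call was lost without mouse 1 (log2 fold change -3.57, adjusted p = 0.0534) and with cells thinned to 3000 UMIs (log2 fold change -2.10, adjusted p = 0.196). Pdgfa, the other chain, was at 213, 14.1 and 239 CPM in the mural class with 89 UMIs and had 1 UMI in the endothelial class. The Notch ligands Dll4 and Jag2 had 24 and 9 UMIs in the endothelial class and none in the mural class, whereas the Notch target Heyl had 20 UMIs in the mural class and none in the endothelial class. None of these 3 genes passed the low-count filter, and of 16 Notch genes 4 were tested and none was called. Angpt2, an angiopoietin, was at 77, 98.5 and 50.6 CPM in the mural class and had 0 UMIs in the endothelial class, with 0.646, 1.08 and 1.55 CPM in the other cells. Ednra, the endothelin receptor of muscle, was at 148, 0 and 50.6 CPM in the mural class with 36 UMIs, 1 UMI in the endothelial class and 2.18, 1.72 and 1.36 CPM in the other cells. Of 15 basement membrane genes 13 were tested, and Col18a1, the collagen from which endostatin is released, was the 1 called in each comparison, a share near the 11.3%, 8.81% and 6.12% of all tested genes called in the 3 comparisons and so no result about the list. Col18a1 was at 48.5, 15.3 and 27.3 CPM in the endothelial class, 255, 267 and 133 in the mural class and 134, 83.9 and 67.8 in the other cells (log2 fold change -2.85 ± 0.40 (SE), adjusted p = 0.00169). Its calls against the other cells were lost without mouse 1 (adjusted p = 0.17 for the endothelial and 0.114 for the mural class), without mouse 2 for the endothelial class (0.0613) and without mouse 3 for the mural class (0.0703).

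The 5 cells that met both rules, 3 from mouse 1 and 2 from mouse 2, were deep, with a median of 14283 UMIs and a range of 5362 to 27742. They held 1317 to 12181 CPM of endothelial identity genes, and a median of 7273 CPM of fibroblast genes. Summed, the contractile list was at 2611 CPM in the 3 cells of mouse 1 and 2766 in the 2 of mouse 2, and the pericyte list at 2453 and 3429 CPM. A Pdgfra UMI was found in 2 of the 5. With these cells joined to the mural class, 3818 genes were tested in place of 3122. The number called went from 275 to 619 for mural over other, from 354 to 585 for endothelial over other, whose cells were the same, and from 191 to 121 between the vascular classes.

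**Figure D4:**
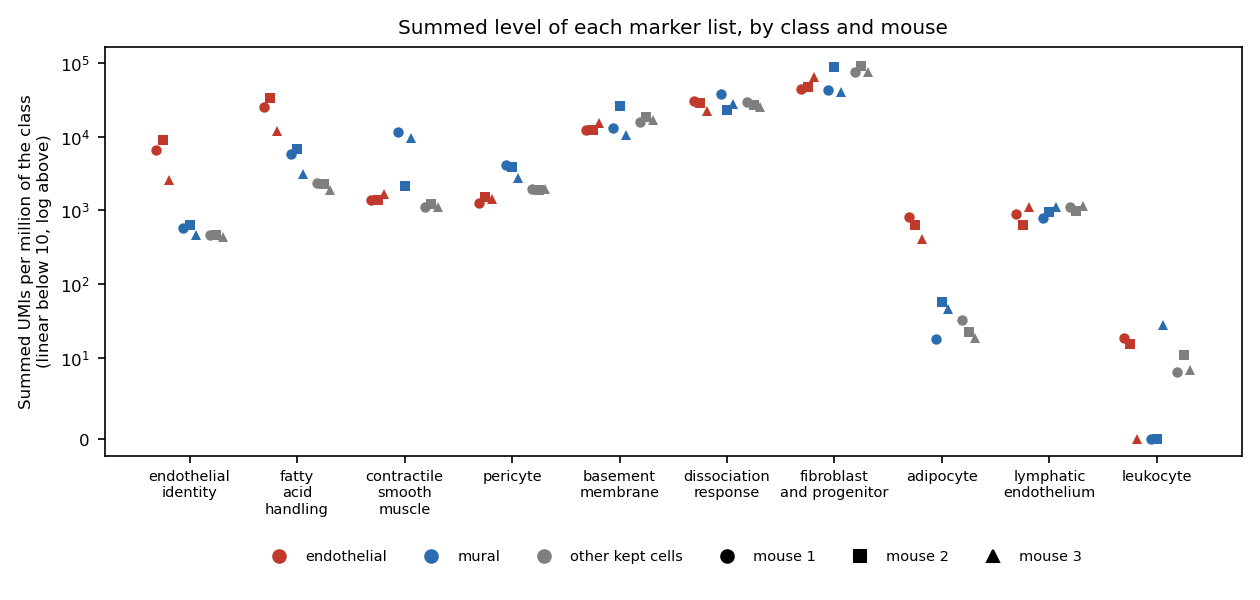
Summed level of 10 marker lists in CPM, for the endothelial class (red), the mural class (blue) and the other kept cells (grey), on an axis that is linear below 10 and logarithmic above. Each symbol is 1 mouse. Endothelial identity, fatty acid and adipocyte lists are highest in red, contractile and pericyte lists in blue (mouse 2 least for the contractile list), and the fibroblast list lies within a factor of 3 in all classes and mice.

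Leukocyte, erythroid, epithelial and skeletal muscle markers rested on few UMIs in the vascular classes. The 16-gene leukocyte list summed to 18.2, 15.3 and 0 CPM in the endothelial class (5 UMIs, Tyrobp the most abundant) and 0, 0 and 27.6 in the mural class (6 UMIs, Cd74 the most abundant), and Ptprc was at 0 UMIs in both. In the other cells the leukocyte list was at 8.23, 10.8 and 8.52 CPM. The erythroid list held 8 and 3 UMIs, the epithelial list 2 and 1 and the skeletal muscle list 10 and 3. The Schwann list summed to 164, 329 and 164 CPM in the endothelial and 272, 70.3 and 253 in the mural class, nearly all of it Cryab, which is not particular to glia. In the other cells the Schwann list was at 260, 276 and 367 CPM. The 20 immediate-early and heat shock genes of the dissociation response summed to 30742, 28983 and 22345.5 CPM in the endothelial class, 38403, 23447.5 and 27735 in the mural class and 29900.1, 27293 and 25655 in the other cells. All 20 were tested, and 1 was called higher in the endothelial class, a share below the 8.07% of all tested genes. This was Hspa1a, at 843, 1578 and 1994 CPM against 529, 771 and 794.5 (log2 fold change 0.95 ± 0.22 (SE), adjusted p = 0.0203). It was not called without mouse 1 (adjusted p = 0.0626), mouse 2 (0.0724) or mouse 3 (0.0623). Of 12 proliferation genes 2 were tested and Hmgb2 was higher in the mural class (log2 fold change 1.40 ± 0.38 (SE), adjusted p = 0.0409), a call lost without mouse 1 (adjusted p = 0.489) or mouse 3 (0.332), by DESeq2 (0.148) and with no block (0.0542), and Mki67 had 0 and 1 UMIs in the endothelial and mural classes. Over all genes tested, 6.05% were higher in the mural class.

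The counts of called genes depended on single mice. Without mouse 1, 2 or 3 the endothelial class differed from the other cells in 101, 206 and 475 genes (354 with all 3), the mural class in 59, 478 and 158 (275), and the vascular classes from each other in 32, 200 and 248 (191). The 6 endothelial cells of mouse 3 and the 8 mural cells of mouse 2 gave sums of 36607 and 71095 UMIs, so values of those sums rest on few cells, and fewer cells with a transcript and less of it per cell were not told apart in a sum.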

How the data were processed

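Sorted CD31- CD45- SVF cells of 3 mice were measured by 3′ single-cell RNA-seq. The authors made the UMI counts per gene and barcode with Cell Ranger and deposited them without normalization (version 4.0.0 per the file headers, 2.1.1 and mm10 per the submitters' processing notes). The barcodes numbered 13698, 6872 and 16220. Counts were summed per mouse and class, and 9 sums were fitted in edgeR 4.0.16 (R 4.3.3) with filterByExpr, TMM, a quasi-likelihood test and Benjamini-Hochberg adjustment. The mouse was a block because the sums of a mouse come from 1 animal. Deviations of a mouse's sums from the class means correlated with Pearson's r of 0.0331 to 0.435 across 3134 genes. The procedure was tested on simulated data. DESeq2 1.42.0 was an alternative. Gene positions are from GENCODE M21 (GRCm38). The named genes are the 10 largest rises and 5 largest falls of each class over other cells, and 8 in each direction between the classes, with the same sign in all mice and at least 50 CPM in the higher class, plus up to 6 of each of 23 gene lists, where those list genes that were called were at times named after their values were seen (Tjp1, Cd151, Adgrf5, Dpp4 and Ptgis among them). Members, lists and tests were chosen with earlier results of these data known. Intervals are exact at 95%. No doublets were removed.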

Additional observations from a re-analysis of the deposited data

How the results depend on the processing

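With all 3 mice and the mouse as a block, 354, 275 and 191 genes were called for endothelial over other, mural over other and endothelial over mural. No replicate block left 223, 161 and 154, and unblocked calls lost included Ccl8, Cxcl2, Ptgs2, Ramp2 and Myl6. No low-count filter gave 1219, 968 and 458 of 22280 genes tested (3122 with the filter), both-rule cells as mural 585, 619 and 121 of 3818, cells of up to 10% mitochondrial UMIs gave 859 and 1012 over the other cells and 466 between the classes, of 3819, and cells thinned to 3000 UMIs 84, 147 and 35 of 902. With 4 or more rule genes, mural over other gave 138 and endothelial over mural 104 of 2629, and without cells that held a Pdgfra UMI endothelial over mural gave 124 of 1236, a filter applied to the vascular classes only. Leaving out each mouse gave 101 to 475, 59 to 478 and 32 to 248. DESeq2 gave 360, 301 and 218. The mean mural share, 0.199% of kept cells, was 0.112% with 4 or more rule genes, 0.093% without Pdgfra-bearing cells, 0.286% with up to 10% mitochondrial UMIs and 0.105% after thinning. The mean endothelial share, 0.321%, was 0.0883% after thinning, 0.178% without mouse 2 and 0.462% without mouse 3. Uncalled genes changed sign: log2 fold changes with a mouse left out ran from -0.83 to 0.077 for Lpl over other cells (0.22 thinned), from -0.55 to 0.13 for Bcam and from -1.55 to 0.22 for Tinagl1 between the vascular classes, where Tinagl1 passed without mouse 2 (adjusted p = 0.0161). Of 1917 values of single genes under the alternatives, 1697 kept their direction and side of the threshold, 186 lost and 29 gained a call, and 5 changed sign. Taken by gene result, 66 of 147 kept both under every alternative, and 62 lost their call without mouse 1. A gene that an alternative did not test gave no value there, as with many after thinning. The causes were not tested.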
